A study of Mus musculus with 12 samples.

Results

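The genes described here are the 2 neurotrophins Bdnf and Ntf3, the receptors Ntrk2, Ntrk3 and Ngfr, and the sorting receptor Sort1. They were taken by name from a table of 55385 mouse genes, in which each of the 6 has 1 row. The table holds FPKM values (fragments per kilobase of transcript, scaled to the mapped fragments), a level that allows for gene length and library depth. RNA was sequenced from what the paper describes as whole brains of male C57BL/6J mice bought at 8 weeks of age. From each group, 3 of the 8 mice were used, with 1 library per mouse. Mice of the C_W group were unstressed and given water by gavage, and unstressed mice of the C_O group received krill oil for 5 weeks, at 200 mg/kg daily. Mice of the MS_W group were given water and exposed to chronic unpredictable mild stress (CUMS) for 4 weeks, and mice of the MS_O group received both CUMS and krill oil. Each library is named by its group and mouse number. The comparisons ask how stress altered these transcripts with and without krill oil, and how krill oil altered them with and without stress.

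Neurotrophins are secreted growth factors that support the survival of neurons, the growth of their processes and the strength of their synapses. Bdnf encodes brain-derived neurotrophic factor, and Ntf3 encodes neurotrophin-3. Mature BDNF acts mainly through the tyrosine kinase receptor TrkB, encoded by Ntrk2, and neurotrophin-3 acts mainly through TrkC, encoded by Ntrk3. Ngfr encodes p75NTR, a receptor of the tumour necrosis factor receptor family that binds all neurotrophins, and their uncleaved pro-forms with high affinity together with sortilin, the product of Sort1. In the adult brain, p75NTR is best known from the cholinergic neurons of the basal forebrain. BDNF has long been studied in stress and depression.

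All coordinates are of the mouse build GRCm38 (mm10). Bdnf (ENSMUSG00000048482) lies at chr2:109674700-109727007 on the plus strand, Ntf3 (ENSMUSG00000049107) at chr6:126101412-126166715 on the minus strand, and Ntrk2 (ENSMUSG00000055254) at chr13:58806569-59133970 on the plus strand. Ntrk3 (ENSMUSG00000059146) lies at chr7:78175959-78738012 on the minus strand, Ngfr (ENSMUSG00000000120) at chr11:95568818-95587735 on the minus strand, and Sort1 (ENSMUSG00000068747) at chr3:108284082-108361511 on the plus strand. The table lists 11 transcripts for Bdnf, 3 for Ntf3, 10 for Ntrk2, 20 for Ntrk3, 1 for Ngfr and 3 for Sort1, and each FPKM value pools them. The levels of Ntrk2 and Ntrk3 therefore pool transcripts of the kinase-bearing receptors with those of truncated forms, and the level of Bdnf pools transcripts from separate promoters. Exons of Bdnf and Sort1 overlap exons of an antisense gene each in the GENCODE annotation. Gm45346, antisense to Bdnf, had at most 0.120 FPKM in a library, and Gm12523, antisense to Sort1, at most 0.764 FPKM.

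Promoter sequence is shown for Ngfr, the member with the largest difference between groups, and for the promoter of Bdnf that holds the core of a cAMP response element (CRE), a site bound by the activity-dependent factor CREB. RefSeq's promoter table (build GRCm38.p6) held 7 windows for Bdnf, 2 for Ntf3 and 1 each for Ngfr and Ntrk2, and none was matched for Ntrk3 or Sort1. Each sequence runs 5′ to 3′ on the strand of the gene and ends before its first annotated exon base there. The window of Ngfr is chr11:95587736-95587948 on the minus strand, with the GC box (GGGCGG or its reverse complement CCGCCC) in capitals, and the window of Bdnf is chr2:109692186-109692435 on the plus strand, with the CRE core (TGACG or its reverse complement CGTCA) in capitals.
Ngfr: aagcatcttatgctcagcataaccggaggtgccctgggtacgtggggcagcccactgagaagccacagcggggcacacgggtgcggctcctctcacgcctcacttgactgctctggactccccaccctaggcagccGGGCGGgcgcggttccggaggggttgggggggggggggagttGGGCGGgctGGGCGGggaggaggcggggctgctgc
Bdnf: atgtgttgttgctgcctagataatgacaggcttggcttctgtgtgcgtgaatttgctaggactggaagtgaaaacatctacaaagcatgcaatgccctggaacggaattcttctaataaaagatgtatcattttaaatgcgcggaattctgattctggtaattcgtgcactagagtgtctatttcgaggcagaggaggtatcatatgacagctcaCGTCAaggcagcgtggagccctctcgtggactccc
The window of Ngfr held 3 GC boxes, and 27.4% of all 32851 promoter windows of that length held at least 1. The window of Bdnf held 1 CRE core, which 17.8% of all windows of that length held, while the other 6 Bdnf windows held no match. The letters alone do not show that a factor binds there.

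The libraries had between 50912906 and 75678721 estimated counts. The smallest C_W library had 69768244 and the largest MS_W library 61608502. The total of estimated counts and the group therefore cannot be told apart in the comparison of C_W with MS_W. Markers of neurons (5 genes) had a summed level of 655 to 943 FPKM in the 12 libraries. In markers of hindbrain and cerebellum, 2 libraries differed from the rest, C_O72 and MS_W95. Their summed levels of 8 hindbrain markers were 75.5 and 47.0 FPKM, against 0.0173 to 0.444 FPKM in the other 10, and those of 7 cerebellum markers were 262 and 892 FPKM, against 7.35 to 20.1 FPKM. The paper states that whole brain was collected, and hindbrain and cerebellum are part of it, yet the other 10 libraries had little of their markers. The 10 libraries are therefore not a cleaner set of whole brains, and the reason for the difference was not tested. Beside the main values of the members, values over the 10 libraries without these 2 are given. The regional makeup also varied among those 10, and the sums of striatum and hypothalamus markers are given beside Ngfr.

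Over 12 libraries, no member passed an adjusted p of 0.05 in limma's test across all genes. In this test, 21393 genes, those with a mean of 0.1 FPKM or more, were fitted on log2(FPKM + 1), and a log2 fold change (log2FC) below is a difference on that scale, the second group minus the first, which understates changes of low genes. The adjusted threshold was passed by 0.00467% of all tested genes each in C_W vs MS_W, C_O vs MS_O and MS_W vs MS_O, by 0% in C_W vs C_O and by 0% for the interaction, which is the stress difference with krill oil minus the stress difference with water. At an unadjusted p under 0.05, 1 of the 6 members was called in C_W vs MS_W (background of all genes 10.5%), 0 in C_O vs MS_O (8.88%), 0 in C_W vs C_O (3.55%), 0 in MS_W vs MS_O (6.09%) and 2, Ngfr and Ntf3, for the interaction (7.23%). With edgeR on the estimated counts, 0 members passed the adjusted threshold in every comparison, where 0% to 0.00467% of all genes did. With DESeq2, 1 member passed it in C_W vs MS_W (1.94% of all genes with an adjusted p), and 0 did in C_O vs MS_O (0.83%), C_W vs C_O (0.255%), MS_W vs MS_O (0.39%) and for the interaction (0.684%).

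By the study's criteria for differentially expressed genes (DEGs), an unadjusted p under 0.05 and a ratio of mean FPKM over 2-fold, Ngfr was called in C_W vs MS_W, where 4.59% of all tested genes were called. In C_O vs MS_O (3.57% of all genes), C_W vs C_O (1.76%) and MS_W vs MS_O (2.81%), 0 members were called. Over the 10 libraries, Ngfr alone met these criteria in C_W vs MS_W (5.81% of all genes), C_O vs MS_O (4.28%) and MS_W vs MS_O (3.36%), and 0 members did in C_W vs C_O (1.64%). The 3 levels of one group lay wholly above or below those of the other for 2 members, Ngfr and Sort1, in C_W vs MS_W, and for 3 members, Ntf3, Ngfr and Sort1, in MS_W vs MS_O. Such separation was common among all tested genes in C_W vs MS_W (24.6%) and less so in MS_W vs MS_O (12.3%). Over all 12 libraries it was seen for 0 members in C_O vs MS_O (12.2% of all genes) and in C_W vs C_O (9.42%). With groups of 2 or 3 in the 10 libraries, separation was seen for 3 members in C_W vs MS_W (Ntrk2, Ngfr and Sort1, 38.8% of all genes), 3 in C_O vs MS_O (Bdnf, Ngfr and Sort1, 26.8%), 0 in C_W vs C_O (19.3%) and 3 in MS_W vs MS_O (Ntf3, Ngfr and Sort1, 22.3%). Among these 10, Ngfr passed the adjusted threshold in C_W vs MS_W, where 1.15% of all genes did, and in MS_W vs MS_O, where 0.271% did. No member passed it over the 10 libraries in C_O vs MS_O (0.014% of all genes), in C_W vs C_O (0.00467%) or for the interaction (0.145%). C_W stands in 2 of these comparisons, as does each other group, so the comparisons are not independent of each other.

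**Figure D1:**
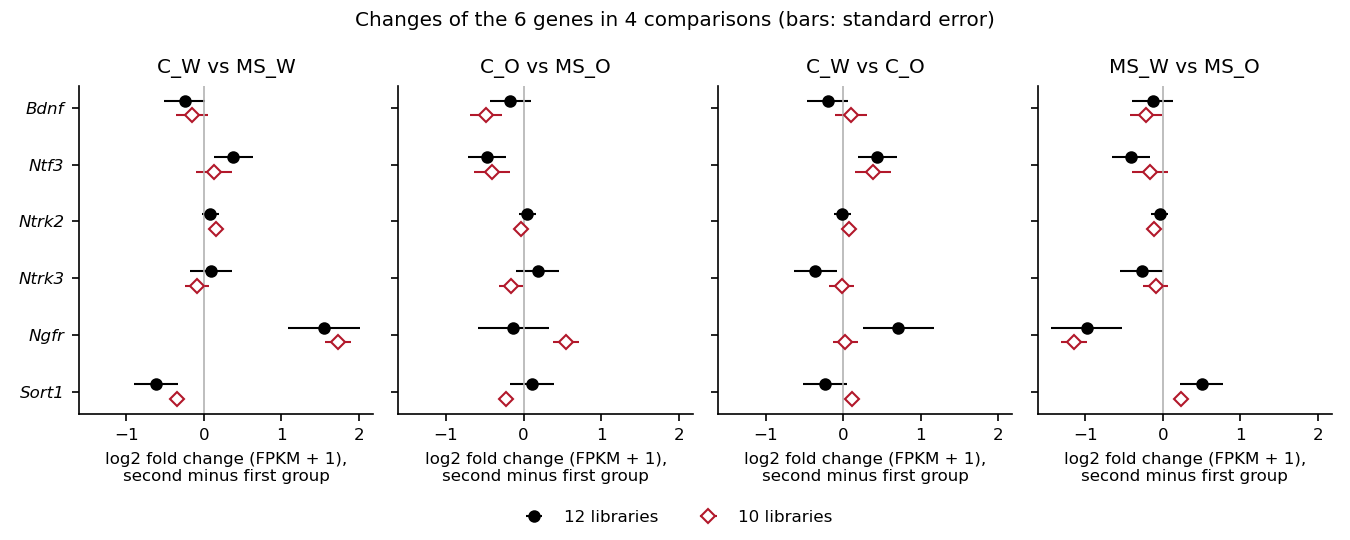
Log2FC on the log2(FPKM + 1) scale (horizontal axis, second minus first group) of the 6 genes (vertical axis) in the 4 comparisons, from limma over 12 libraries (black circles) and over the 10 libraries without C_O72 and MS_W95 (red open diamonds), with bars of 1 standard error. Ngfr had the largest values, 1.55 and 1.73 in C_W vs MS_W, and its sign in C_O vs MS_O differed between the 2 sets.

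By mean level over the 12 libraries, Sort1 (64.2 FPKM) came first, followed by Ntrk2 (30.9), Ntrk3 (4.28), Bdnf (2.11), Ngfr (1.80) and Ntf3 (0.609). Sort1 exceeded Ntrk2 in 12 of 12 libraries although their ranges touched, since the lowest level of Sort1 was 32.6 FPKM and the highest of Ntrk2 was 34.4 FPKM. Ntrk2 lay above Ntrk3 without overlap. Ntrk3 exceeded Bdnf in 12 of 12 libraries, Bdnf exceeded Ngfr in 7, and Ngfr exceeded Ntf3 in 10. Transcripts of the BDNF receptor were thus more abundant per length than those of BDNF itself in this tissue, and the order of Bdnf and Ngfr differed between libraries. Ntrk2 varied least among the 12 libraries (coefficient of variation 7.70%) and Ngfr most (93.2%).

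**Figure D2:**
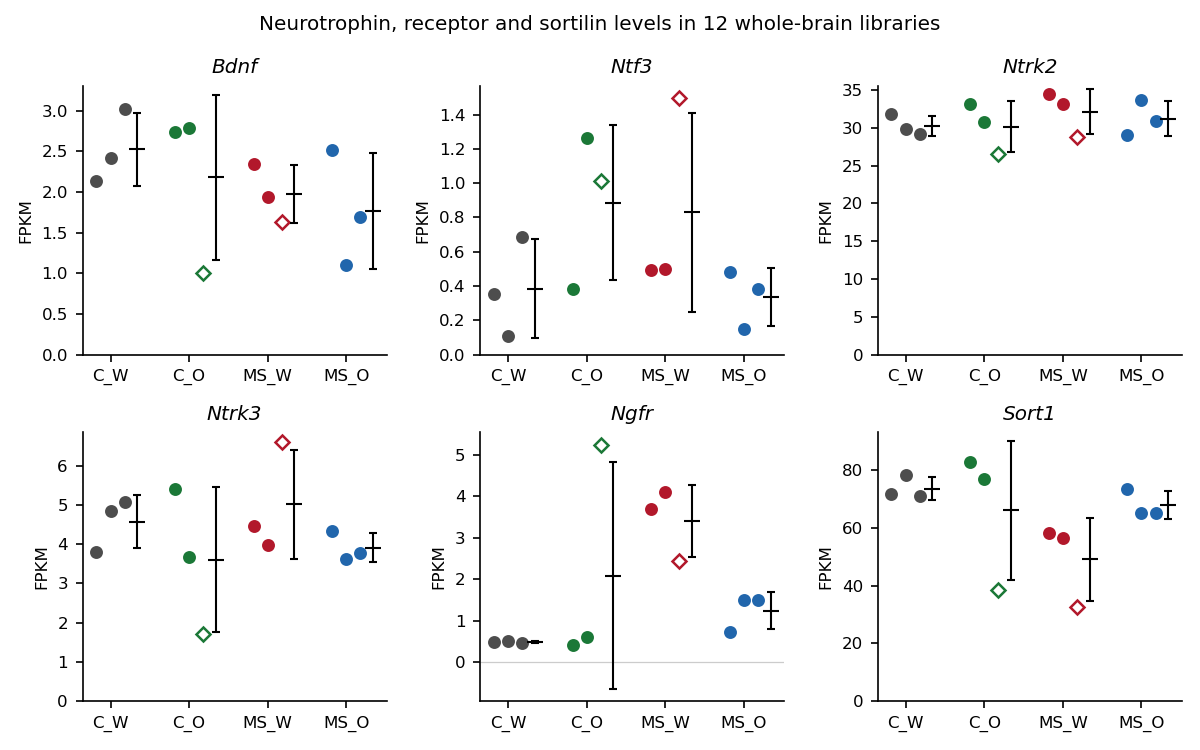
FPKM (vertical axis, linear) of the 6 genes in each library by group (horizontal axis), with the mean ± SD of 3 mice in black and C_O72 and MS_W95 as open diamonds. The 3 C_W libraries of Ngfr sit between 0.457 and 0.495 FPKM and the 3 MS_W libraries between 2.43 and 4.10, while Ntrk2 stays between 26.5 and 34.4 FPKM in all 12.

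Bdnf did not differ between groups past the adjusted threshold. Its levels were 2.14, 2.42 and 3.02 FPKM in C_W and 2.74, 2.79 and 1.01 FPKM in C_O, the last of them in C_O72. Under stress they were 2.34, 1.94 and 1.63 FPKM in MS_W, the last of them in MS_W95, and 2.52, 1.10 and 1.69 FPKM in MS_O. Over the 12 libraries the groups overlapped in all 4 comparisons, and the lowest library of all was C_O72. Without C_O72, both C_O libraries lay above the 3 of MS_O. The log2FC was -0.25 (SE 0.261, limma adjusted p = 0.725) in C_W vs MS_W and -0.17 (SE 0.261, adjusted p = 0.861) in C_O vs MS_O. For krill oil it was -0.20 (SE 0.261, adjusted p = 0.909) without stress and -0.13 (SE 0.261, adjusted p = 0.932) with stress. Over the 10 libraries, the mean of C_O was 2.77 FPKM and that of MS_O was 1.77 FPKM, which gave -0.48 (SE 0.206, limma adjusted p = 0.362), while C_W vs MS_W gave -0.16 (SE 0.206, adjusted p = 0.755). Between 361 and 1594 estimated counts stood behind each of these levels.

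Ntf3 had the lowest level of the members and a wide spread within each group. Its levels were 0.356, 0.109 and 0.687 FPKM in C_W and 0.383, 1.26 and 1.01 FPKM in C_O. Under stress they were 0.492, 0.498 and 1.50 FPKM in MS_W and 0.482, 0.152 and 0.380 FPKM in MS_O. The highest was MS_W95, and the estimated counts behind the levels ran from 15 to 179. All 3 MS_O libraries lay below the 3 MS_W libraries, although the nearest of them, at 0.482 and 0.492 FPKM, were almost level. The log2FC for stress was 0.38 (SE 0.248, limma adjusted p = 0.590) with water and -0.47 (SE 0.248, adjusted p = 0.608) with krill oil. The interaction was -0.85 (SE 0.350, limma adjusted p = 0.665), and over the 10 libraries it was -0.54 (SE 0.328, adjusted p = 0.765). Over these 10, stress with water gave 0.13 (SE 0.232, limma adjusted p = 0.829), which leaving out MS_W95 alone also gave (0.13), and stress with krill oil gave -0.41 (SE 0.232, adjusted p = 0.449).

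Ntrk2, which encodes the BDNF receptor TrkB, had similar means in the 4 groups of 3. Its means ± SD were 30.2 ± 1.39 FPKM for C_W and 30.1 ± 3.34 for C_O, and 32.1 ± 2.95 for MS_W and 31.2 ± 2.32 for MS_O (n = 3 each). Over the 12 libraries the groups overlapped in all 4 comparisons, and the log2FC lay between -0.04 and 0.08, each with an SE of 0.110. Without C_O72 and MS_W95, both MS_W libraries (mean 33.8 FPKM) lay above the 3 of C_W, and the log2FC was 0.16 (SE 0.081, limma adjusted p = 0.404). The lowest levels were those of C_O72 (26.5 FPKM) and MS_W95 (28.8 FPKM). Truncated TrkB is the form typical of astrocytes, and the summed level of 8 astrocyte markers was 925 FPKM in C_O72 and 896 FPKM in MS_W95, against 417 to 510 FPKM in the other 10 libraries. The difference was largest in Aldoc, at 649 and 603 FPKM against 198 to 260. Aqp4, Gja1 and Aldh1l1 were also higher in both libraries. Slc1a2 was lower in both, at 67.55 and 60.1 FPKM against 86.7 to 132.5. Slc1a3 was lowest of all in C_O72 and highest in MS_W95. The markers thus did not move together.

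Ntrk3, which encodes the neurotrophin-3 receptor TrkC, was also without a difference past the threshold. Its levels were 3.81, 4.85 and 5.08 FPKM in C_W and 5.40, 3.69 and 1.71 FPKM in C_O. Under stress they were 4.47, 3.98 and 6.60 FPKM in MS_W and 4.34, 3.63 and 3.78 FPKM in MS_O. Its lowest level was that of C_O72 and its highest that of MS_W95, so these 2 libraries lay at opposite ends. The log2FC ran from -0.36 (SE 0.276, limma adjusted p = 0.908) in C_W vs C_O to 0.18 (SE 0.276, adjusted p = 0.863) in C_O vs MS_O. It lay between -0.16 and -0.02 over the 10 libraries in the 4 comparisons.

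Ngfr was higher in MS_W than in C_W by the DEG criteria, and was the only member called there. It was at 0.482, 0.495 and 0.457 FPKM in the 3 C_W libraries and at 3.68, 4.10 and 2.43 FPKM in the 3 MS_W libraries. In C_O it was at 0.411 and 0.607 FPKM in C_O15 and C_O30 but at 5.24 FPKM in C_O72, the highest of all 12, and in MS_O it was at 0.715, 1.49 and 1.50 FPKM. Every MS_W library lay above every C_W and every MS_O library, and the MS_O libraries lay above the C_W libraries as well.

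The mean level of Ngfr was 0.478 ± 0.0196 FPKM in C_W and 3.40 ± 0.872 in MS_W (SD, n = 3 each), a ratio of 7.12. The log2FC of 1.55 (SE 0.460, limma adjusted p = 0.318) passed the unadjusted threshold of the DEG criteria but not the adjusted one. Without C_O72 and MS_W95 it was 1.73 (SE 0.167, adjusted p = 0.00321). Leaving out C_O72 alone, a library of neither group, gave 1.55 (SE 0.184, adjusted p = 0.00964), since all 4 groups share the estimate of spread and C_O72 lay 10.3-fold above the mean of the other C_O libraries. A covariate called library size here was the sum of log2(FPKM + 1) over the lower-expressed genes of each library. It came from FPKM and not from the estimated counts given above. With this covariate the log2FC was 0.15 (SE 0.470, limma adjusted p = 0.992).

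Among stressed mice, those given krill oil lay below those given water in Ngfr, a difference that passed the adjusted test only over the 10 libraries. The mean was 1.24 ± 0.451 FPKM in MS_O (SD, n = 3), 2.75-fold below that of MS_W, and the log2FC was -0.98 (SE 0.460, limma adjusted p = 0.819) over 12 libraries and -1.15 (SE 0.167, adjusted p = 0.0423) over 10. Without stress, krill oil gave a log2FC of 0.71 (SE 0.460, adjusted p = 0.908), which became 0.03 (SE 0.167, adjusted p = 1) over the 10 libraries. Stress with krill oil gave -0.13 (SE 0.460, adjusted p = 0.943) over 12 libraries and 0.55 (SE 0.167, limma adjusted p = 0.335) over the 10 without C_O72 and MS_W95, and its sign also turned without MS_O13 (0.05). The interaction was -1.69 (SE 0.651, adjusted p = 0.665 by limma) and -1.18 (SE 0.236, adjusted p = 0.204) over the 10 libraries.

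The summed level of 5 markers of cholinergic neurons was highest in the 4 libraries with the highest Ngfr, which were C_O72 and the 3 of MS_W. The 5 cholinergic markers were Chat, the enzyme that makes acetylcholine, Slc18a3 and Slc5a7, its vesicular transporter and the choline transporter, and Lhx8 and Gbx1, transcription factors of forebrain cholinergic neurons. Their summed level was 0.264 to 0.792 FPKM in C_W, 7.10 to 14.9 in MS_W and 1.70 to 2.77 in MS_O, and in C_O it was 1.41 and 3.00 FPKM beside 20.1 in C_O72. Below these 4 libraries the order differed, since C_O30, with Ngfr at 0.607 FPKM, had a larger sum than each MS_O library, and MS_O13 had the lowest Ngfr of MS_O and its largest sum. The levels did not overlap for 4 of the 5 in C_W vs MS_W (24.6% of all genes), in C_W vs C_O (9.42%) and in MS_W vs MS_O (12.3%), and for 0 in C_O vs MS_O (12.2%). Chat was at 0.220, 0.0604 and 0.130 FPKM in C_W and at 2.10, 2.75 and 1.53 FPKM in MS_W, and its log2FC over the 10 libraries was 1.59 (limma adjusted p = 0.00193). Lhx8 was at 3.08 and 3.98 FPKM in MS_W31 and MS_W75 but listed at 0.0001 FPKM in C_O72 and MS_W95, where Chat, Slc18a3 and Slc5a7 were high. Gbx1 was at 1.45 and 2.02 FPKM in MS_W31 and MS_W75 and at 0.265 and 0.264 FPKM in C_O72 and MS_W95, against at most 0.0505 in C_W. In C_O30, Gbx1 was at 0.477 FPKM and Lhx8 at 0.656 FPKM, above C_O72 and MS_W95, and Gbx1 was at 0.262 FPKM in MS_O46. Lhx8 and Gbx1 were thus not highest in all 4 libraries with the highest Ngfr, unlike Chat, Slc18a3 and Slc5a7.

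Markers of other brain regions also differed between C_W and the MS_W libraries with the highest Ngfr. The summed level of 7 striatum markers was 338.5 and 508 FPKM in MS_W31 and MS_W75, 48.0 to 100.3 in C_W, 143 to 346 in MS_O, 172 and 256 in C_O15 and C_O30, and 50.2 and 62.1 in C_O72 and MS_W95. That of 10 hypothalamus markers was 128.5 and 118 FPKM in MS_W31 and MS_W75, 3.68 to 13 in C_W, 12.3 to 58.3 in MS_O, 2.82 and 20.7 in C_O15 and C_O30, and 7.34 and 6.22 in C_O72 and MS_W95. In MS_O most of this sum was Trh, at 8.84, 37.4 and 52.95 FPKM, which was at 28.3 and 20.3 in MS_W31 and MS_W75. Avp was at 0.916 to 2.10 FPKM in MS_O and at 32.3 and 59.3 in MS_W31 and MS_W75. The sum in MS_O therefore does not stand for the 10 markers alike. Over the 10 libraries, where Ngfr was called, the hypothalamic hormone gene Avp (log2FC 5.31, limma adjusted p = 0.00709) and the striatal receptor gene Adora2a (3.32, adjusted p = 0.0157) were also called in C_W vs MS_W. The part of cholinergic cells and of regional makeup in the levels of Ngfr was not tested. In bulk tissue, more cells of a type and more RNA per cell cannot be told apart.

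**Figure D3:**
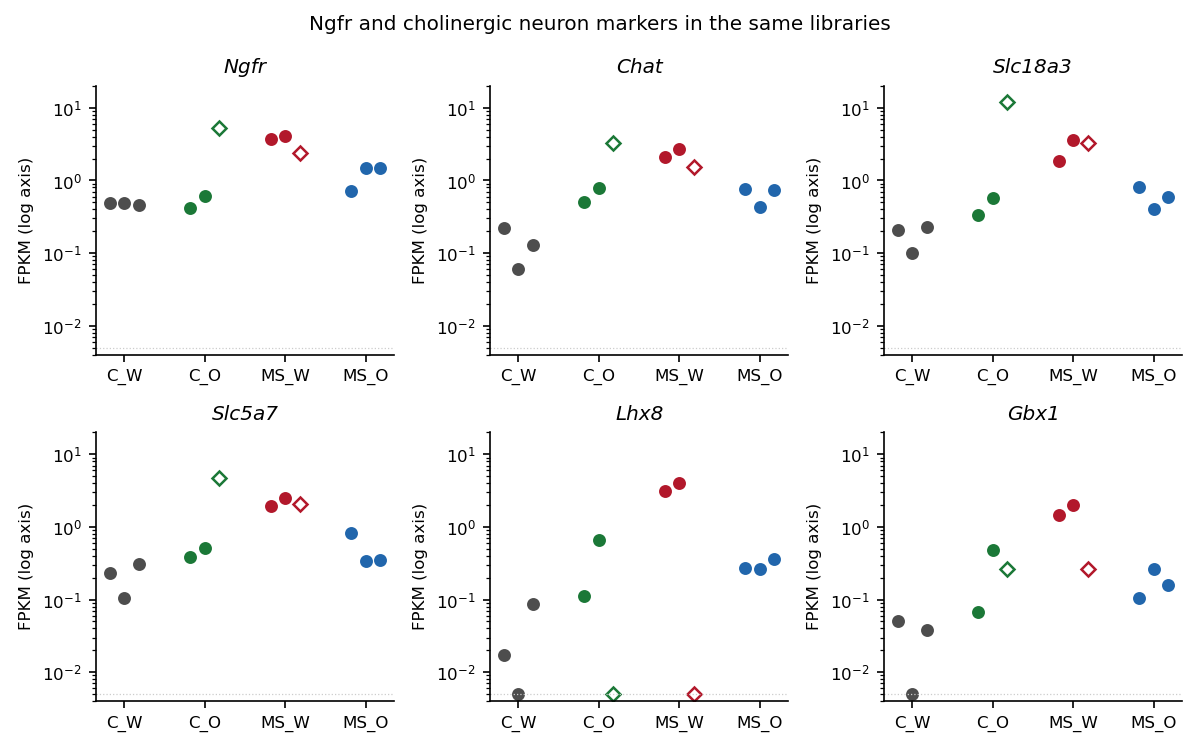
FPKM (vertical axis, logarithmic) of Ngfr and the cholinergic markers Chat, Slc18a3, Slc5a7, Lhx8 and Gbx1 in each library by group (horizontal axis), with C_O72 and MS_W95 as open diamonds and values listed at 0.0001 FPKM drawn on the dotted line. Lhx8 is listed at 0.0001 FPKM in both of these libraries, while Ngfr is at 5.24 and 2.43 FPKM there.

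Sort1, which encodes sortilin, lay lower in MS_W than in C_W in each mouse, without passing the test. It was at 71.7, 78.2 and 70.9 FPKM in C_W and at 58.2, 56.6 and 32.6 FPKM in MS_W, the last in MS_W95. In C_O it was at 82.9, 76.9 and 38.5 FPKM, the last in C_O72, and in MS_O at 73.5, 65.3 and 65.1 FPKM. Every MS_W library lay below every C_W and every MS_O library, and the 2 lowest of all were MS_W95 and C_O72. The log2FC was -0.62 (SE 0.283, limma adjusted p = 0.482) in C_W vs MS_W and 0.50 (SE 0.283, adjusted p = 0.833) in MS_W vs MS_O. With the covariate called library size, taken from FPKM, the former was 0.04 (SE 0.372, limma adjusted p = 0.999). Without those 2 libraries these were -0.35 (SE 0.082, limma adjusted p = 0.101) and 0.24 (SE 0.082, adjusted p = 0.473). In C_O vs MS_O the log2FC was 0.11 (SE 0.283, adjusted p = 0.922) over 12 libraries and -0.23 (SE 0.082, limma adjusted p = 0.336) over 10.

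The summed level of 8 cortex markers, genes of neurons of the cortex such as Slc17a7, was lowest in C_O72 and the MS_W libraries, where Sort1 was lowest too. It was 442 to 483 FPKM in C_W, 275 to 330 in MS_O, 184 and 187 in MS_W31 and MS_W75 and 86.7 in MS_W95, and in C_O it was 412 and 463 beside 149 in C_O72. Most of the sum in C_W was Slc17a7, at 254 to 290 FPKM. Lamp5 went otherwise in C_O72, at 107 FPKM against 79.9 to 94.5 in C_W. For 7 of the 8 markers the levels of C_W and MS_W did not overlap, as for 24.6% of all genes. Those of MS_W and MS_O did not overlap for 3 of the 8, as for 12.3% of all genes. The summed level of the 5 neuron markers was 862 to 943 FPKM in C_W and 655 to 717 in MS_W. For 3 of the 5 the levels of these groups did not overlap. The means of Tubb3 (214.8 and 218.7 FPKM in C_W and MS_W) and Map2 (17.64 and 18.41) were not lower in MS_W. The part of these regional differences in the level of Sort1 was not tested.

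**Figure D4:**
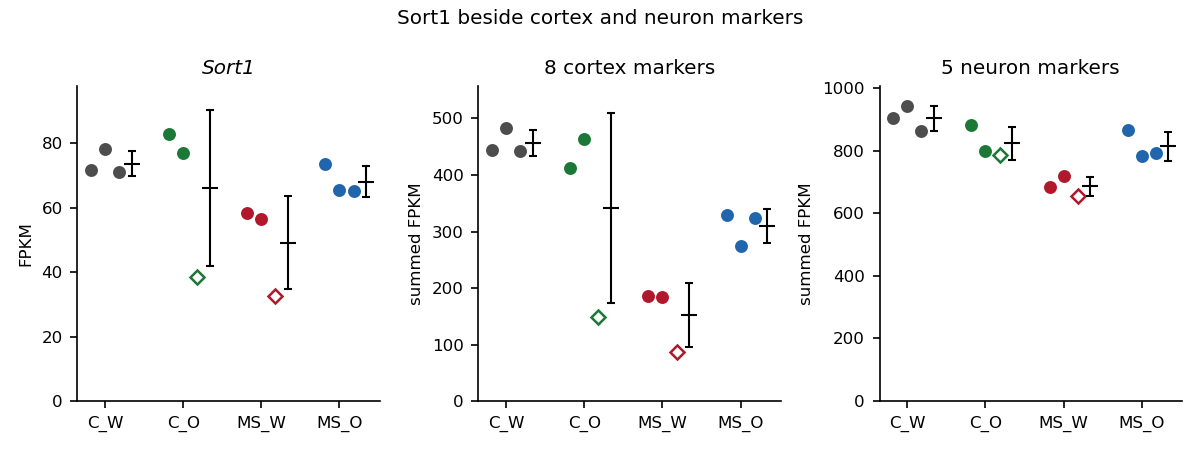
FPKM of Sort1 (left) and the summed FPKM of 8 cortex markers (middle) and 5 neuron markers (right) on linear vertical axes, in each library by group, with the mean ± SD of 3 mice in black and C_O72 and MS_W95 as open diamonds. In all 3 panels each MS_W library lies below each C_W library.

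In the wider neurotrophin pathway, the share of genes meeting the DEG criteria in C_W vs MS_W over 12 libraries was near that of all genes. Of 117 rows that the authors' table assigns to the KEGG neurotrophin signaling pathway, the 6 members included, 112 were tested, and 0 passed limma's adjusted threshold over 12 libraries. By the DEG criteria, 4 were higher in MS_W than in C_W and 0 lower, which is 3.57% of the tested rows against 4.59% of all genes. Among them were Ngfr, Rps6ka6 (a ribosomal S6 kinase, log2FC 0.55, SE 0.196, adjusted p = 0.384) and Trp73 (a p53 relative, named after its values were seen, log2FC 0.53, SE 0.235, adjusted p = 0.473). The median log2FC of the pathway was 0.07, beside 0.06 over all tested genes.

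In C_O vs MS_O, 3 pathway genes met the criteria, 2.68% of the tested rows against 3.57% of all genes. Map3k1, a kinase of the JNK and ERK cascades, was higher in MS_O (log2FC 1.36, SE 0.412, limma adjusted p = 0.479), as was the GTPase gene Nras (1.26, SE 0.437, adjusted p = 0.479), and Gsk3b, a kinase inhibited by AKT, was lower (-1.21, SE 0.411, adjusted p = 0.479). Without C_O72 and MS_W95 these were 1.40 (limma adjusted p = 0.337), 0.91 (0.377) and -1.38 (0.335), and Nras no longer met the criteria. In C_W vs C_O, 2 met the criteria, 1.79% of the tested rows against 1.76% of all genes, and Gsk3b was higher in C_O (log2FC 1.61, SE 0.411, limma adjusted p = 0.908). In MS_W vs MS_O, 2 met them, 1.79% against 2.81% of all genes. Over the 10 libraries, 3 pathway genes passed the adjusted threshold in C_W vs MS_W, where 1.15% of all genes did. Among the 3 were Ngfr and Arhgdib (log2FC 0.85, SE 0.140, limma adjusted p = 0.0333). In MS_W vs MS_O, 2 passed it, among them Ngfr, where 0.271% of all genes did.

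Shorter lists gave the pathway by role. Among 9 other ligands, receptors and sortilin relatives, 8 were tested and the gene of neurotrophin-4, Ntf5, was too low, at no more than 0.111 FPKM in a library. By the DEG criteria, 1 of the 8 was higher in MS_W than in C_W and 1, Rtn4r, lower, against 4.59% of all genes. In the other comparisons, 0 of the 8 were called in C_O vs MS_O (3.57%), 1 in C_W vs C_O (1.76%) and 2 in MS_W vs MS_O (2.81%). Rtn4r encodes the Nogo receptor, which signals together with p75NTR, and was at 47.3 ± 1.65 FPKM in C_W and 15.4 ± 2.11 in MS_W (SD, n = 3 each, log2FC -1.57, SE 0.559, limma adjusted p = 0.382, and -1.45 with 0.109 over the 10 libraries), with 8.83 FPKM in C_O72. In MS_O it was at 40.1, 13.2 and 24.3 FPKM, which overlapped MS_W. Of 10 tested genes for the cleavage of pro-neurotrophins, 14 partners and signalling genes of p75NTR and 12 activity-dependent regulators of Bdnf, 0 met the DEG criteria in any of the 4 comparisons over 12 libraries. Over the 10 libraries, 1 of the 10 cleavage genes met the DEG criteria, higher in MS_W than in C_W, where 5.81% of all genes were called. Of 35 adaptors and signalling genes of the Trk receptors, Nras alone met them, in C_O vs MS_O over 12 libraries (3.57% of all genes), and 0 did over the 10. Of 10 genes induced by BDNF, Arc, an immediate early gene of synapses, alone met them, at 82.9 ± 17.1 FPKM in C_W and 27.9 ± 17.3 in MS_W (SD, n = 3 each, log2FC -1.80, SE 0.756, adjusted p = 0.456, and -1.09 with 0.298 over the 10 libraries), where 4.59% of all genes were called and 9 of the 10 had a log2FC below 0. The median of these 10 was -0.44 in C_W vs MS_W over 12 libraries and -0.09 over 10, beside 0.06 and 0.04 for all genes. Arc was at 12.3 FPKM in C_O72 and 7.90 in MS_W95. The part of regional makeup in the levels of Rtn4r and Arc was not tested.

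For each member, the 3 genes with the most similar levels were sought among the 13621 genes that averaged 1 FPKM or more, by Pearson's r of log2(FPKM + 1) over the 12 libraries, which share groups and include C_O72 and MS_W95. These r are descriptions across the same 12 samples and carry no p. Sort1 was most like Mlip (r = 0.989, and 0.950 over the 10 libraries), Poc1a (0.985 and 0.928) and Znfx1 (0.984 and 0.932). Ngfr was most like Rftn1 (0.955 and 0.953), Hsdl1 (0.948 and 0.935) and Gm5124 (0.947 and 0.927). Rftn1, which encodes a lipid raft protein, was at 1.26 to 1.60 FPKM in C_W, 3.31 to 3.56 in MS_W and 5.58 in C_O72. By r over the 10 libraries, the genes ranked 5, 18 and 12 of 13621 for Sort1 and 18, 40 and 56 for Ngfr, so other genes were then more similar.

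Bdnf was most like Rock2 (r = 0.961, and 0.942 over the 10 libraries), Prrg3 (0.959 and 0.932) and Plxna4 (0.956 and 0.958). Rock2 encodes a kinase that acts on the cytoskeleton, and Plxna4 a semaphorin receptor. Ntrk3 was most like Far2 (0.959 and 0.814) and Appl1 (0.945 and 0.865), so its likeness was lower over the 10 libraries. Ntrk2 was most like C2cd5 (0.925 and 0.901), Alg8 (0.884 and 0.768) and Ctc1 (0.864 and 0.784). Ntf3 was most like Tmem38b (0.902 and 0.822), Ralgds (0.865 and 0.761) and Gm42742 (0.864 and 0.805).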

How the data were processed

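Per the labels and the paper's methods, poly(A) RNA of 12 brains was sequenced in pairs, and the authors trimmed reads with cutadapt 1.9, aligned them to mm10 with HISAT2 2.0.4 and assembled them with StringTie 1.3.4d (the submitters' processing notes also name edgeR and DESeq2). The deposited table gives FPKM and estimated counts per gene, and a gene without an estimate is listed at 0.0001 FPKM. The strand setting and the origin of the estimated counts are not given in the sources used here. The highest total of estimated counts, 75678721, is above the number of valid reads that the paper lists for any library. The estimated counts are therefore not plain read counts, which limits the edgeR and DESeq2 results taken from them. No column of the authors' own comparisons was used.

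The members and gene lists were chosen with earlier results of these data known. The main test was limma 3.58.1 (R 4.3.3, eBayes with trend) in 1 fit of 4 groups to log2(FPKM + 1), for genes of 0.1 FPKM or more on average, with Benjamini-Hochberg adjustment over all 21393 genes. Estimated counts were rounded to whole numbers for edgeR 4.0.16 and DESeq2 1.42.0, run as alternatives, and both methods and limma were checked on simulated data. The simulation gave every gene the same variability and held no libraries like C_O72 and MS_W95. It therefore does not show how the methods perform on these data. Further alternatives changed the pseudocount (0.1, 0.01), the filter (none, or 1 FPKM), the scaling (quantiles, or centring each library on its median) and the fit (2 groups, a covariate called library size), or left out libraries. That covariate was the sum of log2(FPKM + 1) over the lower-expressed genes of each library, and not the total of estimated counts. Named are the 6 members, the 3 genes most like each, list genes past the adjusted threshold, and up to 3 genes per list and comparison with the smallest p among those meeting the DEG criteria. The p-values set each group difference against the spread between libraries of single mice, 3 per group, which the main fit pools over the 4 groups. That spread includes regional differences between libraries, such as those of C_O72 and MS_W95. Sequences are from RefSeq, and 93.9% of the table's genes have the start and end of GENCODE vM21. Values were tabulated in Python 3.11.15 and plotted with matplotlib 3.10.9. Genes that the naming rule picks beyond those named are not reported here.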

Additional observations from a re-analysis of the deposited data

How the results depend on the processing

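Of 679 log2FC of the 6 members under the alternatives, 621 kept their sign and their side of the adjusted threshold, 5 passed the threshold, all of them for Ngfr, and 53 changed sign. No paired analysis was possible because the groups share no replicate numbers. The cause of each change was not tested, and values are given as they stand.

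The call of Ngfr by the DEG criteria in C_W vs MS_W was made under every alternative but the library size covariate, which left 0 members called (1.22% of all genes). Ngfr passed the adjusted threshold there in a fit of 2 groups (1 member, log2FC 1.55, adjusted p = 0.0265, 0.566% of all genes), with DESeq2 (1 member, 2.74, adjusted p = 0.0189, 1.94%) and over the 10 libraries (1 member, 1.15%). In C_O vs MS_O, 1 member was called with centred libraries (Ntf3, 3.9% of all genes) and 1 over the 10 libraries (Ngfr, 4.28%). In C_W vs C_O, 1 was called by edgeR (2.38% of all genes) and 1 by DESeq2 (2.8%), each time Ngfr. In MS_W vs MS_O, Ngfr was the 1 member called in a fit of 2 groups (2.43%), by DESeq2 (3.13%) and over the 10 libraries (3.36%), where 1 also passed the adjusted threshold (0.271%). Leaving out 1 library gave 0 to 1 members called in C_O vs MS_O (1 without C_O15, C_O72 or MS_W95, with 2.22% to 5.85% of all genes called), 0 to 2 in C_W vs C_O (2 without C_O15, 1.17% to 4.15%) and 0 to 1 in MS_W vs MS_O (1 without C_O15 or C_O72, 2.16% to 4.38%), and 0 to 1 past the adjusted threshold in C_W vs MS_W (1 without C_O72, 0% to 0.472%).

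The KEGG pathway genes meeting the DEG criteria in C_W vs MS_W were 1 at a mean FPKM of at least 1 (2.69% of all genes) and 0 with the library size covariate (1.22%). With 1 library left out they were 3 to 7, beside 3.49% to 5.63% of all genes (7 without MS_W75, 5.36%). In C_O vs MS_O they were 5 without a filter (2.25% of all genes) and 5 with centred libraries (3.9%). With 1 library left out they were 2 to 5, beside 2.22% to 5.85% of all genes (5 without C_O15, 3.99%). In C_W vs C_O they were 1 at a mean FPKM of at least 1 (0.896%). With 1 library left out they were 1 to 7, beside 1.17% to 4.15% of all genes (5 without C_W70, 1.5%, 7 without C_O15, 4.15%, and 1 without C_O72, 1.17%). In MS_W vs MS_O they were 1 with a pseudocount of 0.01 (2.49%), 1 at a mean FPKM of at least 1 (1.12%) and 5 with DESeq2 (3.13%). With 1 library left out they were 1 to 3, beside 2.16% to 4.38% of all genes (1 without MS_W95, 2.75%). Past the adjusted threshold in C_W vs MS_W were 2 in a fit of 2 groups (0.566%), 3 with DESeq2 (1.94%), 3 over the 10 libraries (1.15%) and 0 to 2 with 1 library left out (2 without C_O72, 0.472%). DESeq2 gave 2 in C_O vs MS_O (0.83%), 2 in C_W vs C_O (0.255%) and 1 in MS_W vs MS_O (0.39%), the 10 libraries gave 2 in MS_W vs MS_O (0.271%), and leaving out 1 library gave 0 to 1 in C_O vs MS_O (1 without MS_O13, 0.524%).

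With the library size covariate, the log2FC of Bdnf was 0.61 in C_W vs MS_W, 0.16 in C_O vs MS_O, 0.04 in C_W vs C_O and -0.45 for the interaction, that of Sort1 was 0.04 in C_W vs MS_W, that of Ntrk2 was 0.0036 in C_W vs C_O, and that of Ntrk3 was -0.35 for the interaction. Over the 10 libraries, Bdnf was at 0.10 in C_W vs C_O and -0.32 for the interaction, Ntrk2 at -0.03 in C_O vs MS_O and 0.08 in C_W vs C_O, and Ntrk3 at -0.09 in C_W vs MS_W, -0.16 in C_O vs MS_O and -0.07 for the interaction. Over these 10, Ngfr was at 0.55 in C_O vs MS_O, and Sort1 at -0.23 there and 0.12 in C_W vs C_O. Ngfr in C_O vs MS_O was at 0.04 with a pseudocount of 0.1 and 0.09 with 0.01. Ntrk2 in C_W vs MS_W was at -0.01 with centred libraries, -0.0027 with edgeR and -0.01 with DESeq2, in C_O vs MS_O at -0.03, -0.01 and -0.02, and in C_W vs C_O at 0.01 with centred libraries. Sort1 in C_O vs MS_O was at -0.03 with edgeR and -0.04 with DESeq2.

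With 1 library left out, the log2FC of Bdnf ran from -0.48 to 0.01 in C_O vs MS_O, from -0.35 to 0.10 in C_W vs C_O, from -0.32 to 0.06 in MS_W vs MS_O and from -0.23 to 0.26 for the interaction. Ntrk2 ran from -0.03 to 0.12 in C_O vs MS_O, from -0.08 to 0.08 in C_W vs C_O, from -0.11 to 0.01 in MS_W vs MS_O and from -0.12 to 0.04 for the interaction. Ntrk3 ran from -0.09 to 0.22 in C_W vs MS_W, from -0.16 to 0.46 in C_O vs MS_O and from -0.25 to 0.37 for the interaction. Ngfr ran from 1.44 to 1.73 in C_W vs MS_W and from -0.52 to 0.55 in C_O vs MS_O, and Sort1 from -0.23 to 0.31 in C_O vs MS_O and from -0.43 to 0.12 in C_W vs C_O.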
